A study of Brassica rapa with 30 samples.

Results

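Transcript levels of LP08, an early-flowering cultivar of Brassica rapa, were compared with those of Chiifu, a late-flowering one, in plants that had received no cold. The comparison rests on 6 of the 30 libraries of the series, namely all those labelled NV, 3 per cultivar. Both groups were whole plants at an age of 3 weeks, kept in a greenhouse and given no agent. The other 24 libraries came from the same cultivars at 4 later treatments. V1, V20 and V40 stand for cold that had lasted 1, 20 and 40 days, and V40T10 adds 10 warm days to V40. All treatments began at 3 weeks of age, so plants of longer treatments were also older. Effects of cold and of age cannot be told apart. The 24 libraries serve here to describe the libraries without cold, to show which differences recurred, and to test whether the cultivar difference changed. The labels do not say whether a library was made from 1 plant or from several, nor whether different libraries hold different plants. The spread behind each p-value is that of these libraries and may be technical only.

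Vernalization is the promotion of flowering by long exposure to cold. In crucifers the MADS-box protein FLC holds back flowering by repressing genes such as FT and SOC1, and cold silences FLC. In Arabidopsis thaliana this silencing needs VIN3, a PHD-finger protein made during cold, and GIGANTEA links the circadian clock to flowering under long days. The series is named after a stop codon in BrFLC2, a Brassica rapa copy of FLC, but the sources used here do not say which ID is that copy, so it is not analysed here. The tables give IDs only, and 1 of the 42186 IDs could be paired with a gene name. Features are therefore given by ID and without a function, and neither gene families nor organ markers of a whole plant could be checked. Working labels for this series call Bra020445 a VIN3 copy and Bra024536 the GIGANTEA gene. These 2 names are quoted as such and were not checked.

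The 6 libraries held 18663200 to 22160319 reads counted on features, and 29509 to 30437 features had at least 1 read. Levels are in counts-per-million units (CPM). A count of 0 in 1 library allows a level of at most 0.138 to 0.191 CPM, a limit that covers counting error only. The 3 LP08 libraries correlated with one another at 0.985 to 0.986 across features. The 3 Chiifu libraries did so at 0.895 to 0.944, with replicate 3 in both of the lower pairs, and the cultivars correlated at 0.741 to 0.8. Features are not independent replicates, so these coefficients only describe the libraries. In Chiifu NV, 2710 features (10.5%) spanned 4-fold or more between the highest and the lowest library, against 0.29 to 2.01% in the other 9 groups of the series. Chiifu replicate 3 lay at least 2-fold below its group mean for 2756 features. It also had 10.7% of its alignments outside features and 0.207% of its counts on IDs beginning with ENSRNA, against 6.91 to 8.12% and 0.0634 to 0.148% in the other 5 libraries. Later libraries reached higher shares, 11.6% outside features in Chiifu V40T10 replicate 3 and 0.653% on such IDs in Chiifu V40 replicate 1.

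Some features were all or nothing within a group, and they are given here because the comparison rests on these libraries. Among 14531 features at 5 CPM or more in all 12 Chiifu libraries from later treatments, Chiifu NV replicate 2 had 16 at 0 counts, replicate 3 had 10, and replicate 1 had 0. Of these, 12 of the 16 and 4 of the 10 were also at 0 in all LP08 NV libraries. The share of all 14531 features at 0 in LP08 NV is not given here, so these counts are a description only. In the reverse direction, replicates 2 and 3 each held 7 features at 5 CPM or more that were near 0 (at most 3 counts in all) in the 12 later Chiifu libraries. Of these, 4 and 3 averaged 5 CPM or more in LP08 NV, and the others did not. Over all 42186 features, 17159 averaged 5 CPM or more in LP08 NV. Among those that reached this level in LP08 NV, Bra014535 stood at 0, 21.5 and 67.6 CPM in Chiifu NV replicates 1, 2 and 3. In LP08 NV it was at 49.7, 58.1 and 58.3 CPM. It had 1 count in the sum of the 12 later Chiifu libraries, and 34.4 to 77 CPM in the 12 of LP08. Bra026915 showed the opposite, at 58.9, 0 and 39.4 CPM in Chiifu NV and at 0 CPM in all 3 LP08 NV libraries, with 40.5 to 69.2 CPM in later Chiifu. Both were chosen after their values were seen. Of the features that set Chiifu replicates 2 and 3 apart, some were thus as in LP08 NV and others were not, and replicate 1 had none of either kind.

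The same was asked of features that mark 1 cultivar in the 24 later libraries. Of 73 features at 5 CPM or more in all later LP08 libraries and near 0 in all later Chiifu libraries, all 73 reached 1 CPM in each LP08 NV library. In Chiifu NV, 0, 6 and 2 of them did so in replicates 1, 2 and 3. Of 92 features with the opposite pattern, 92, 78 and 88 reached 1 CPM in Chiifu NV replicates 1, 2 and 3, and 0 in every LP08 NV library. All 30 libraries of the series correlated best with a library of their own cultivar. For 26 of them, even the lowest correlation within the cultivar was above the highest with the other cultivar. What gave replicates 2 and 3 these features was not tested.

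**Figure D1:**
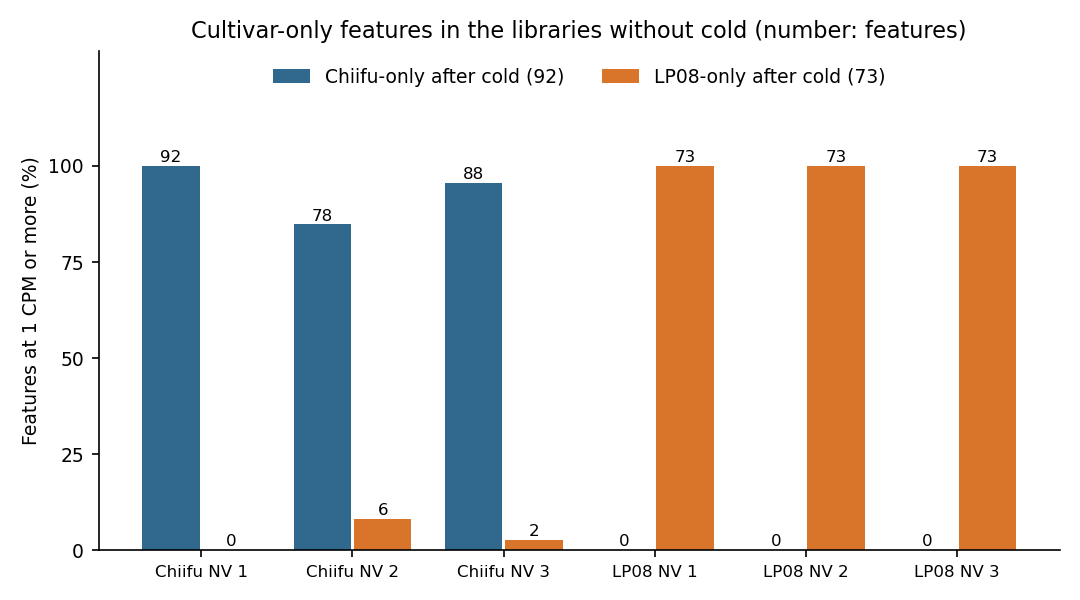
Share of cultivar-marking features that reached 1 CPM in each library without cold, in percent of the 92 Chiifu-only (blue) and 73 LP08-only (orange) features, with the number of features over each bar. Chiifu replicate 1 and the 3 LP08 libraries held 0 features of the other cultivar, while Chiifu replicates 2 and 3 held 6 and 2.

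LP08 NV also shared features with a single later library. In LP08 V20 replicate 1, 3 features had 0 counts that were at 5 CPM or more in the 11 other later LP08 libraries, and all 3 were near 0 in LP08 NV. They were Bra039513, Bra041148 and ENSRNA049462696. Another 4, Bra002007, Bra002008, Bra031714 and Bra036773, reached 10.1 to 46.1 CPM in that library, had at most 3 counts in the sum of the 11 others, and lay at 12.2 to 41.4 CPM in LP08 NV. For comparison, 13428 features were at 5 CPM or more in all 12 later LP08 libraries, and each LP08 NV library had 0 of them at 0 counts. Likewise, 0 features near 0 over those 12 libraries reached 5 CPM in any LP08 NV library. What LP08 V20 replicate 1 and LP08 NV share was not tested.

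The cultivars differed in many features, more of them lower than higher in LP08. Of 25881 features with enough counts, 5121 (19.8%) were called at an edgeR adjusted p below 0.05, 1968 higher in LP08 (7.6%) and 3153 lower (12.2%). At a difference of 2-fold or more these numbers were 1669 (6.45%) and 2815 (10.9%). Lower levels in LP08 thus made up 61.6% of the calls. This share was 53.9% when all 30 libraries set the spread and 56.7% without Chiifu replicate 3. At the later treatments it lay between 51.5% (V20) and 52.7% (V1). The median log2 difference, LP08 minus Chiifu, was -0.04 over all features tested, 2.02 over those called higher and -1.98 over those called lower. Groups that did not overlap in any library were more frequent than calls, at 11258 features (43.5%), of which 5793 were higher in LP08 (22.4%) and 5465 lower (21.1%). In whole plants, fewer cells of a type and less RNA per cell cannot be told apart, nor can less transcript and reads that align less well to the reference.

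This number depended on the libraries that set the spread. It was 12932 when all 30 libraries set it, and fell to between 2755 and 2815 without any 1 of the LP08 libraries. Without Chiifu replicate 3 it was 8463, 5037 of the 5121 calls (98.4%) were kept in the same direction, and 0 turned. Without Chiifu replicates 2 and 3, with the spread of the lone Chiifu library taken from LP08, 4652 of the calls (90.8%) were kept and 0 turned.

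Large differences were frequent. Among features called higher in LP08, 299 differed by less than 2-fold, 677 by 2 to 4-fold, 282 by 4 to 8-fold and 145 by 8 to 16-fold. Among those called lower, these bands held 338, 1254, 563 and 254. By the same fitted differences, 565 higher and 744 lower features were over 16-fold. A difference over 16-fold was reached by 546 higher and 727 lower features when those at 0 in all libraries of a cultivar are held at the bound that 3 counts over the group allow. Of these, 248 and 419 were at 0 in the cultivar with the lower level. The medians above were the same with features held at that bound.

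Direction varied with the level of the feature. Where the cultivar with the higher level averaged 1 to 5 CPM, 9.75% of features were called higher in LP08 and 16.3% lower. At 5 to 20 CPM these shares were 7.02 and 13.1%, and at 20 to 100 CPM 6.15 and 9.68%. Over 100 CPM they were 8.44 and 7.92%, and under 1 CPM 9.86 and 8.21%, so lower calls prevailed only in the 3 middle bands. No test was made between bands.

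In terms of the transcript pool, the features called higher and lower were of similar weight. Features called higher in LP08 took 10.5, 10.2 and 10.1% of all counts in the LP08 libraries and 5.17, 4.68 and 3.9% in the Chiifu libraries. Features called lower took 2.86, 2.93 and 3.02% in LP08 and 8.67, 9.27 and 10.4% in Chiifu. These shares were chosen by the same comparison and are a description. The 1000 most abundant features of each library took 50.6 to 57.2% of its counts, and the single most abundant one 1.59 to 1.77%. That one was Bra028181 in each Chiifu library and Bra028174 in each LP08 library.

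**Figure D2:**
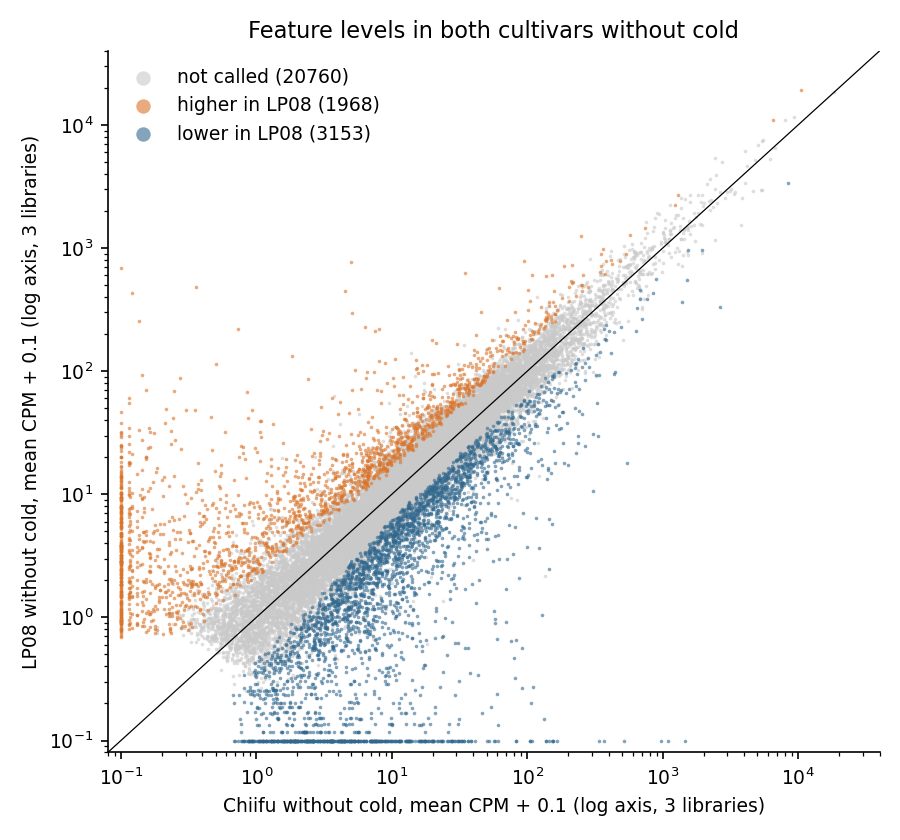
Mean level of each of 25881 tested features in Chiifu (horizontal) and LP08 (vertical) without cold, in CPM plus 0.1 on log axes, over 3 libraries per cultivar. Orange marks the 1968 features called higher in LP08 and blue the 3153 called lower, and the rows of points along both axes are features at or near 0 in 1 cultivar.

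Features of greatest difference in mean CPM were taken as examples, 2 per direction, among those called and without overlap between the groups. That these examples were called and did not overlap therefore follows from the choice. Bra028174 was the most abundant feature of LP08. Its level was 19919, 20444 and 16946 CPM in the LP08 libraries and 11465, 9374 and 10374 CPM in the Chiifu libraries. Every LP08 library was above every Chiifu library, and the means were 19103 ± 1886 and 10404 ± 1046 CPM (SD, n = 3 each). The log2 difference was 0.84 with a standard error (SE) of 0.20, or 1.78-fold, with an edgeR adjusted p of 0.024. The call was lost without Chiifu replicate 2 or any 1 LP08 library, and over all alternatives the adjusted p from edgeR, DESeq2 or limma lay between 8.31e-06 and 0.116.

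Bra025431 was the other feature higher in LP08. It stood at 11359, 11738 and 9604 CPM in LP08 and at 6914, 5733 and 7037 CPM in Chiifu, again without overlap. The log2 difference was 0.69 (SE 0.20), 1.61-fold, with an edgeR adjusted p of 0.0495. This value lies just under the threshold. The call was lost in most alternatives, with adjusted p-values from edgeR, DESeq2 or limma between 0.000454 and 0.185.

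Bra022976 was lower in LP08. It was at 3389, 3674 and 2990 CPM in LP08 and at 7997, 6194 and 11178 CPM in Chiifu, where replicate 3 was the highest. It ranked second by counts in that library, and between 18 and 20 in the LP08 libraries. The log2 difference was -1.38 (SE 0.27), 2.6-fold lower in LP08, with an edgeR adjusted p of 0.0101. It was lost without any 1 LP08 library, and the adjusted p from edgeR, DESeq2 or limma ran from 1.1e-07 to 0.0627 over the alternatives.

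Bra013183 differed most of these 4 in fold. Its level was 383, 347 and 265 CPM in LP08 and 1873, 2486 and 3608 CPM in Chiifu, with the lowest Chiifu library far above all of LP08. The log2 difference was -3.04 (SE 0.31), 8.24-fold lower in LP08, with an edgeR adjusted p of 0.000722. It was called under every alternative run.

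Bra020445, labelled a VIN3 copy, had 0 counts in all 3 LP08 libraries. In Chiifu it stood at 8.33, 7.74 and 5.81 CPM, from 91 to 174 counts per library. The count of 0 over the LP08 group allows up to 0.0513 CPM, so the level was at least 142-fold lower in LP08, with an edgeR adjusted p of 0.000482. Bra024536, labelled the GIGANTEA gene, was at 90, 83.8 and 96.3 CPM in LP08 and at 80.3, 50.2 and 14 CPM in Chiifu. All LP08 libraries were above all Chiifu libraries, but Chiifu spread widely and replicate 3 was the lowest. The log2 difference of 0.86 (SE 0.54) was not called, with an edgeR adjusted p of 0.312. It was 0.43 without Chiifu replicate 3 and 0.13 without replicates 2 and 3, and it was called only when all 30 libraries set the spread (edgeR adjusted p 0.0194, against 0.0835 to 0.602 in the other alternatives).

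**Figure D3:**
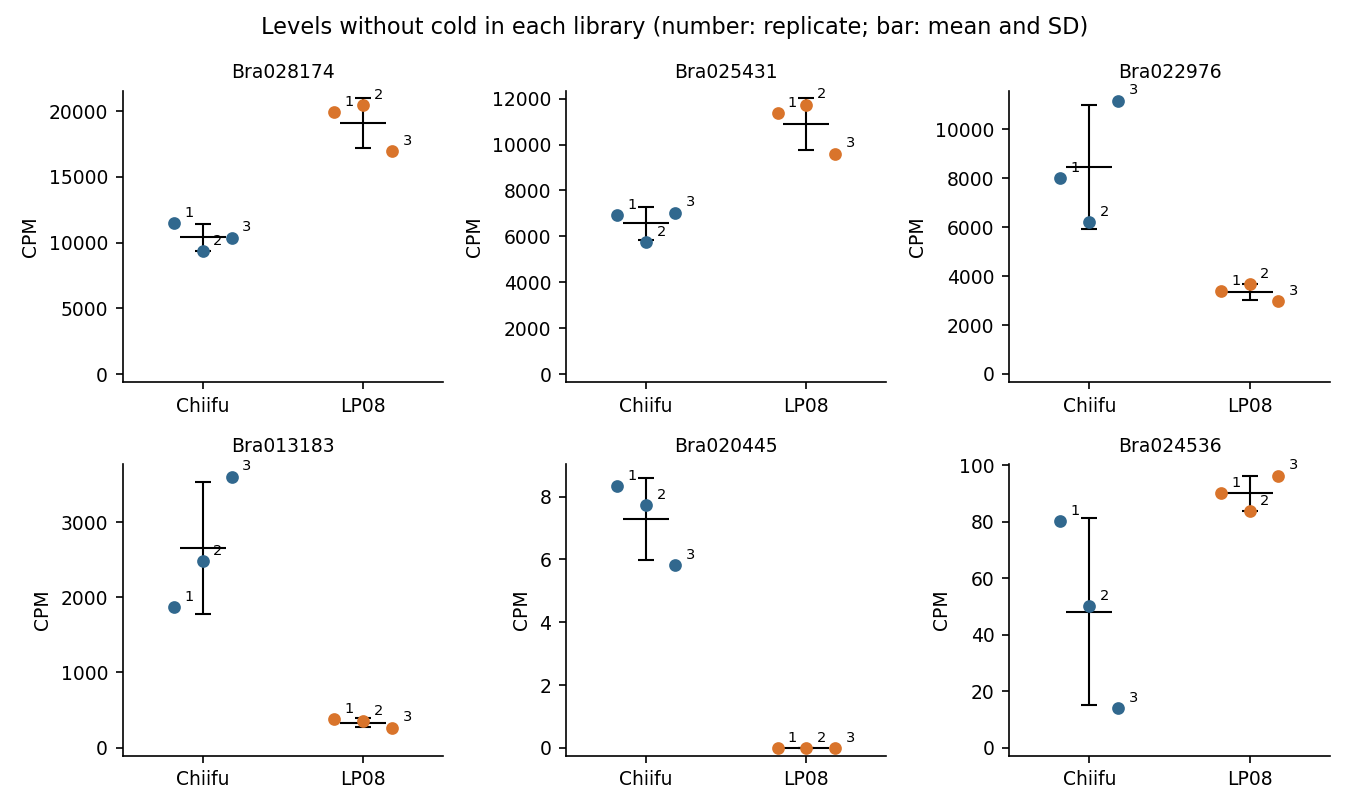
Level in CPM of the 6 features described by library without cold, Chiifu in blue and LP08 in orange, with replicate numbers, the mean and the SD over 3 libraries. LP08 lies above Chiifu in Bra028174, Bra025431 and Bra024536 and below it in Bra022976, Bra013183 and Bra020445, and the Chiifu libraries of Bra024536 spread from 14 to 80.3 CPM.

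Some features were near 0 in 1 cultivar and well detected in the other. Of 17805 features that averaged 5 CPM or more in Chiifu NV, 234 (1.31%) were near 0 in LP08 NV, with at most 3 counts over the group, and 195 of them had 0 counts. Their median level in Chiifu was 12.2 CPM and the highest 1452 CPM, and 205 reached 1 CPM in every Chiifu library. Of 17159 features that averaged 5 CPM or more in LP08 NV, 147 (0.857%) were near 0 in Chiifu NV, 91 with 0 counts. Their median level in LP08 was 9.9 CPM and the highest 687 CPM, and 146 reached 1 CPM in every LP08 library. No test was made between 234 and 147. Of the 73 LP08-only features, 71, 56 and 57 had 0 counts in Chiifu replicates 1, 2 and 3. Without replicates 2 and 3, the number near 0 was 220 in Chiifu and 248 in LP08. For Chiifu the limit of 3 counts then applied to the lone library left, a looser limit than over the group, so 220 and 147 are not alike.

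Most of these features stayed at or near 0 in the later libraries of the same cultivar. This held for 153 of the 234 features (65.4%) over the 12 later LP08 libraries and for 107 of the 147 (72.8%) over the 12 later Chiifu libraries. The limit was again 3 counts, but summed over 12 libraries, so it was stricter per library than without cold. Only 6 of the 234 reached a mean of 5 CPM at any later treatment of LP08, and 2 of the 147 in Chiifu. The 6 were Bra020445, Bra029964, Bra031335, Bra039513, Bra041148 and ENSRNA049462696, of which the last 3 were also at 0 in LP08 V20 replicate 1. Bra039513, for instance, had 0 counts in all LP08 NV libraries and in that V20 library. It was at 28.3 and 28 CPM in the other V20 libraries of LP08 and at 35.2, 35.4 and 52.8 CPM in Chiifu NV. Bra031335 was at 0 in LP08 NV and at 0.191, 21.2 and 16.7 CPM in Chiifu NV, and reached 162, 99.2 and 114 CPM at V20 in LP08 and 237, 118 and 81.3 CPM in Chiifu. Bra029964 was near 0 in LP08 NV and stood at 0.144, 37.5 and 17.5 CPM in Chiifu NV and at 57.2, 85.4 and 98.9 CPM in LP08 at V20. In Chiifu, Bra000845 and Bra027898 were near 0 without cold and averaged 7.4 and 330 CPM at V40T10.

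The comparison of cultivars was repeated at each later treatment, in libraries that do not enter the comparison without cold, to see which differences recurred. LP08 and Chiifu differed in 12789 of 25644 features at V1 (49.9%), 13751 of 26012 at V20 (52.9%), 12796 of 26025 at V40 (49.2%) and 17934 of 26884 at V40T10 (66.7%). The spread between libraries was smaller there than in Chiifu NV, so these numbers and the 5121 without cold come from unequal precision. With 1 spread from all 30 libraries, the number was 12932 without cold and 12380, 12003, 12139 and 16840 at V1, V20, V40 and V40T10. Across features, the log2 differences without cold correlated with those at V1, V20, V40 and V40T10 at 0.895, 0.881, 0.879 and 0.832.

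Most calls recurred. Of the features called higher in LP08 without cold and tested at the later treatment, 83.2% were called higher at V1, 80.9% at V20, 77.7% at V40 and 85.2% at V40T10. For those called lower these shares were 83.2, 80.8, 81.1 and 84.9%. The shares of all features called higher in LP08 at these treatments were 23.6, 25.6, 23.4 and 31.9%, and of those called lower 26.3, 27.2, 25.8 and 34.8%. Of all 24142 features tested at all 5 treatments, 2188 were called higher in LP08 at all 4 later ones and 3013 lower. Of 1711 among them called higher without cold, 1036 (60.5%) were called higher at all 4 later ones and 42 at none. Of 2809 lower features, 1848 (65.8%) were called lower at all 4 and 102 at none. Without LP08 V20 replicate 1 the numbers at all 4 were 1028 and 1868. With the spread of all 30 libraries, which gave more calls, the shares at all 4 were 32.6% of 5288 higher and 45.7% of 5861 lower features.

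Recurrence went with the size of the difference. Of higher features that differed by less than 2-fold without cold, 37.5% recurred at all 4 later treatments, against 45.5% at 2 to 4-fold, 61.2% at 4 to 8-fold, 80.6% at 8 to 16-fold and 94.2% over 16-fold. For lower features the shares were 43.5, 54.6, 67.5, 81.4 and 94.9%. How far this order follows from the weaker power to call small differences was not tested.

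**Figure D4:**
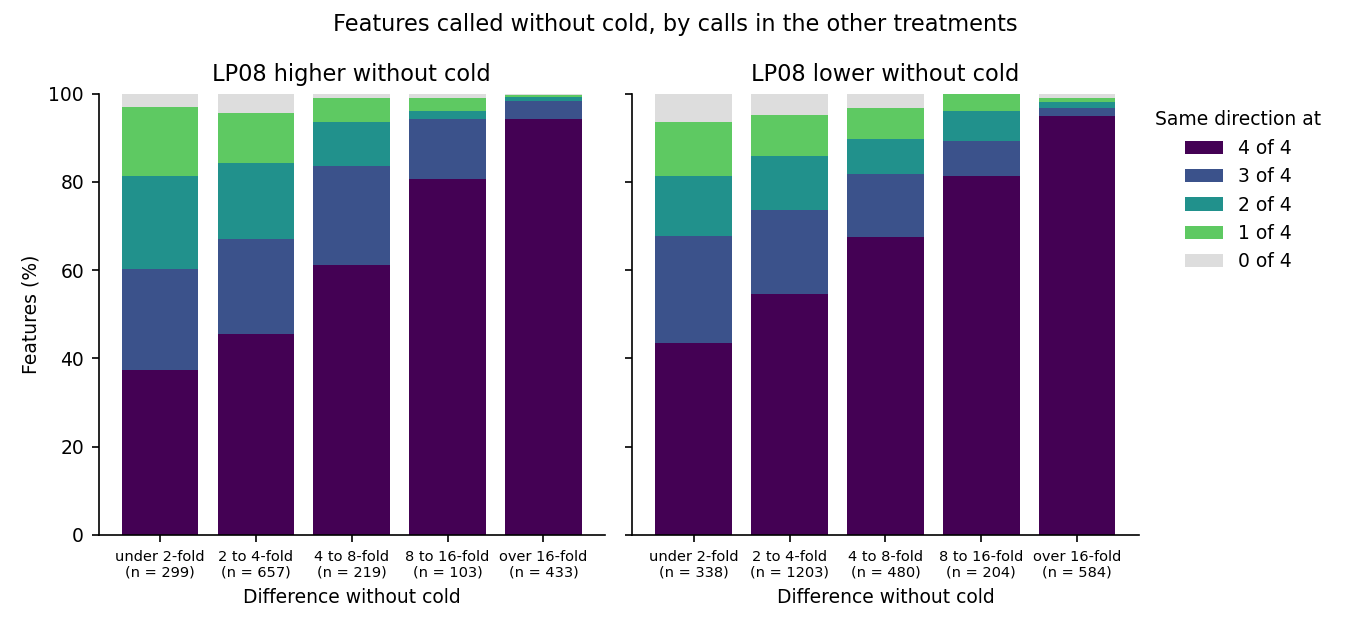
Features called without cold and tested at all 5 treatments, by size of the difference without cold (horizontal), as the share in percent called in the same direction at 4, 3, 2, 1 or 0 of the later treatments. The share called at 4 of 4 goes from 37.5 to 94.2% for features higher in LP08 and from 43.5 to 94.9% for lower ones.

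Read the other way, 2188 of the 24142 features were called higher in LP08 at all 4 later treatments and 3013 lower. Without cold, 2060 of the 2188 (94.1%) had the same sign and 1036 (47.3%) were called, with a median log2 difference of 1.00. Of the 3013, 2944 (97.7%) had the same sign and 1848 (61.3%) were called, with a median of -1.41. Over all features tested without cold, 7.6% were called higher in LP08 and 12.2% lower.

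A call in the opposite direction at 1 or more later treatments was found for 140 of the 1711 higher and 152 of the 2809 lower features. At a single later treatment, opposite calls ran from 31 of 1825 (V1) to 69 of 1842 (V40T10) higher features. For lower features they ran from 52 of 2916 (V1) to 64 of 2979 (V20). At a single later treatment, 25.8 to 34.8% of all features were called lower in LP08 and 23.4 to 31.9% higher. The share of all features called so at 1 or more of the 4 is not given here. In 1 feature, Bra035096, the direction was opposite at all 4 later treatments, and it is named for that after its values were seen. It stood at 9.89, 9.09 and 9.23 CPM in LP08 NV and at 15.8, 15.5 and 28.5 CPM in Chiifu NV, without overlap. The log2 difference was -1.12 (SE 0.29, edgeR adjusted p 0.0305) without cold. At V1, V20, V40 and V40T10 it was 0.92, 0.70, 0.70 and 0.43, with edgeR adjusted p-values of 6.72e-05, 0.0013, 0.00157 and 0.044. Chiifu NV replicate 3 was its highest library without cold, and no alternative setting was run for this feature.

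Whether the cultivar difference itself changed was tested with an interaction term over the 12 libraries of NV and the treatment. Plants of the treatment were also older than those of NV, so a change with cold cannot be told apart from one with age. The difference changed from no cold to V1 in 635 of 27079 features (2.34%), to V20 in 884 of 27374 (3.23%), to V40 in 1121 of 27285 (4.11%) and to V40T10 in 4574 of 27753 (16.5%). These 4 tests share the NV libraries with one another and with the comparison without cold. They were sensitive to single libraries, as without 1 library the numbers ran from 185 (without Chiifu V1 replicate 1) to 1698 (without Chiifu NV replicate 1) at V1. They ran from 286 (without Chiifu V20 replicate 2) to 2761 at V20, from 481 (without LP08 NV replicate 2) to 2565 at V40 and from 2496 (without Chiifu V40T10 replicate 3) to 6674 at V40T10, where the highest of each came without Chiifu NV replicate 3.

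The features described above differed in this respect. Bra020445 was lower in LP08 at V1, at 0.826, 0.336 and 0.381 CPM against 9.46, 10.1 and 9.27 CPM in Chiifu, a log2 difference of -4.27 (SE 0.28, edgeR adjusted p 3.58e-06). At V20 the LP08 mean was 12.7 ± 1.82 CPM and the Chiifu mean 18.4 ± 3.12 CPM (SD, n = 3 per cultivar), and the difference was -0.54 (SE 0.16, edgeR adjusted p 0.0188). That call was lost in 4 of 6 fits that leave out 1 library, without Chiifu V20 replicates 1 or 2 or LP08 V20 replicates 1 or 2, and with the spread of all 30 libraries. The adjusted p from edgeR, DESeq2 or limma was 0.00696 to 0.0694 over the alternatives. At V40 the means were 17.6 ± 6.71 and 25.7 ± 4.1 CPM, the groups overlapped, and the difference of -0.54 (SE 0.24) was not called, with an edgeR adjusted p of 0.0923. At V40T10 it was -3.29 (SE 0.24, edgeR adjusted p 4.57e-06), with an LP08 mean of 0.661 ± 0.0907 CPM and a Chiifu mean of 6.52 ± 1.11 CPM. The cultivar difference was thus smaller at every later treatment than without cold, with edgeR adjusted p-values of the interaction of 0.0138, 0.000171, 0.000456 and 0.000835.

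Bra022976 was called lower in LP08 without cold and at no later treatment. Its log2 difference was 1.04 at V1 (SE 0.12, edgeR adjusted p 9.65e-05), 0.11 at V20 (SE 0.14, 0.513), 0.69 at V40 (SE 0.13, 0.00224) and -0.14 at V40T10 (SE 0.10, 0.214). In Chiifu its mean was 8456 ± 2524 CPM without cold and 581 ± 39.1 CPM at V1, and in LP08 3351 ± 343 and 1228 ± 65.9 CPM (SD, n = 3 each). The change of the difference was called at all 4 treatments, at 2.42, 1.49, 2.07 and 1.26 on the log2 scale, with edgeR adjusted p-values of 0.00255, 0.0237, 0.0029 and 0.0112. The V20 change was lost in 8 of the 12 fits that leave out 1 library each.

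Bra028174 was higher in LP08 at every treatment, by 0.85, 0.71, 0.89 and 2.30 on the log2 scale at V1, V20, V40 and V40T10, with edgeR adjusted p-values of 0.00232, 0.00197, 0.00301 and 1.16e-06. The change from no cold was called at V40T10 alone, at 1.49 (SE 0.22, edgeR adjusted p 0.00161). Bra013183 was lower in LP08 at every treatment, by log2 differences of -1.94, -2.93, -2.59 and -1.05. The change was called at V40T10, at 2.01 (SE 0.32, edgeR adjusted p 0.00228), where LP08 averaged 833 ± 52 CPM and Chiifu 1747 ± 110 CPM (SD over 3 libraries). Bra025431 was higher in LP08 at V40T10, with a log2 difference of 2.03 (SE 0.12, edgeR adjusted p 1.4e-06), and lower at V20, at -0.42 (SE 0.12, edgeR adjusted p 0.0175). The V20 call was lost without Chiifu V20 replicate 2 or LP08 V20 replicate 2, with adjusted p-values from edgeR, DESeq2 or limma of 0.00139 to 0.0746 over the alternatives. At V1 and V40 its differences of 0.44 and -0.09 were not called (edgeR adjusted p 0.059 and 0.705). Bra024536 was at 175 to 310 CPM in LP08 and 188 to 298 CPM in Chiifu during cold, and its cultivar difference was called at V40T10 alone, at 0.46 (SE 0.09, edgeR adjusted p 0.00176). That call was lost with the spread of all 30 libraries (edgeR adjusted p 0.226, against 4.96e-05 to 0.0135 in the other alternatives). Its change from no cold was not called at any treatment, with edgeR adjusted p-values of 0.295 to 0.711.

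**Figure D5:**
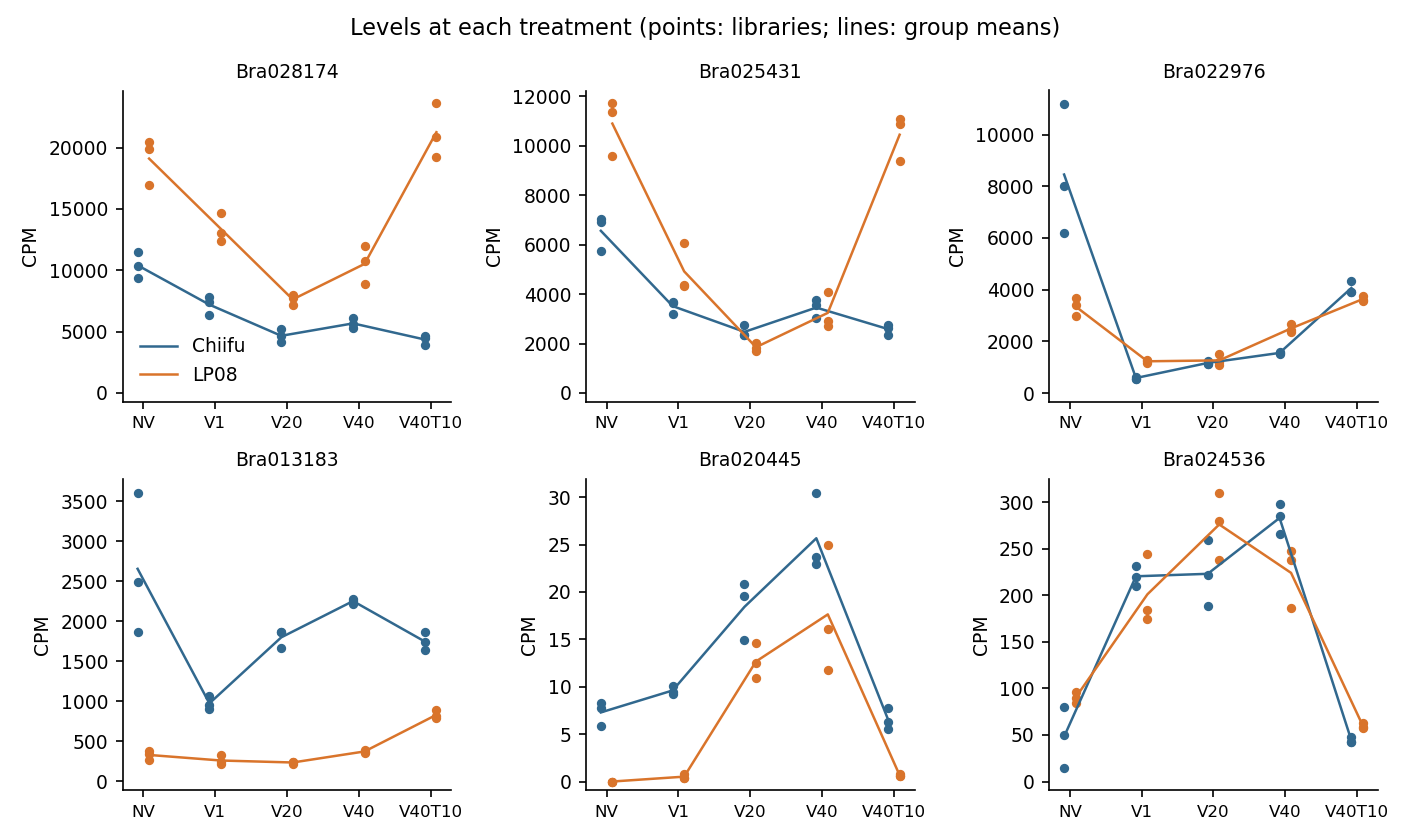
Level in CPM of the 6 features at each treatment, Chiifu in blue and LP08 in orange, with 1 point per library and lines through the means of 3 libraries. Chiifu stands far above LP08 in Bra022976 at NV alone, and Bra020445 is at 0 in LP08 at NV, near Chiifu at V20 and V40, and low again at V40T10.

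IDs beginning with ENSRNA were few among the features tested. Of 47, 2 were called higher in LP08 and 15 lower, where 7.6 and 12.2% of all features were called, with a median log2 difference of -0.77 against -0.04 over all features. Without Chiifu replicate 3, the library with the largest share of such counts, 55 were tested, 5 were called higher and 18 lower, and the median was -0.45.

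Neighbours by ID number were described, with no test. What consecutive numbers mean in the genome is not given in the sources used here. Where the next number was tested, it was called in the same direction for 120 of 1233 higher features (9.73%) and 358 of 2072 lower features (17.3%). Over all tested features the shares called were 7.61 and 12.1%. The next number was called in the opposite direction for 12.9 and 7.24%, beside 12.1 and 7.61% over all. The longest run in 1 direction held 4 consecutive numbers.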

How the data were processed

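RNA of whole plants was sequenced from stranded mRNA libraries on a NovaSeq instrument, per the labels' protocols. For each library the authors deposited raw, unscaled counts of reads on 42186 features, followed by summary rows that were left out here. Tools named in the submitters' processing notes are TopHat2 and HTSeq, besides FastQC and edgeR. Genome build, annotation, strand setting and tool versions are not stated in the sources used here. Alignments at several places were 3.17 to 4.51% of the total in the 6 libraries, so levels of near-identical copies, frequent in Brassica, are uncertain, as are those of overlapping and antisense genes.

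Names were sought in a RefSeq table of the assembly CAAS_Brap_v3.01 with 51589 rows, which matched 1 ID. The gene lists that had been planned could therefore not be counted, and a rule for unnamed features was used, namely the 2 per direction with the greatest difference of mean CPM among those called without overlap, plus the 2 labelled IDs. The members, lists and rules were chosen with earlier results of these data known.

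Tests were run in edgeR 4.0.16 (R 4.3.3) as the 2-sided quasi-likelihood F test, with TMM factors, filterByExpr, Benjamini-Hochberg adjustment over all features tested and an adjusted p below 0.05. Each comparison used its own 6 libraries and each interaction its 12, since Chiifu NV spread more widely than the other groups. Each SE is the log2 difference divided by the square root of F. CPM values use TMM factors over all 30 libraries, and correlations use log2 CPM with a prior count of 2. The limit that a count of 0 allows was set at 3 counts. It ignores that PCR copies of a molecule are counted as separate reads. No pair of NV libraries of a group was a duplicate (Pearson's chi-square per degree of freedom 14.1 to 127). The model was also run on simulated data that gave both cultivars the same spread. Those data thus do not cover the wider spread of Chiifu NV. Alternatives were RLE and upper-quartile scaling, no filter, at least 10 counts in every library, DESeq2 1.42.0, limma 3.58.1 voom with weights per group, the spread of all 30 libraries, the replicate number as a block, each library left out in turn, and other limits for features near 0.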

Additional observations from a re-analysis of the deposited data

Results flagged for a closer look

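The cultivar difference of some described features changed between plants without cold and a later treatment, by a test of the change itself (edgeR interaction term, 12 libraries each, all of them sharing the NV libraries). Changes are in log2 units, later treatment minus NV, of LP08 minus Chiifu. Plants of the later treatments were also older than those of NV. For Bra020445 the change was 5.93 to V1, 9.76 to V20, 9.72 to V40 and 6.99 to V40T10, with edgeR adjusted p-values of 0.0138, 0.000171, 0.000456 and 0.000835. LP08 NV had 0 counts, so these sizes depend on the fit and are no bounds.

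For Bra022976 the change was 2.42 to V1, 1.49 to V20, 2.07 to V40 and 1.26 to V40T10 (edgeR adjusted p 0.00255, 0.0237, 0.0029 and 0.0112). The V20 change was lost in 8 of the 12 fits that leave out 1 library each. For Bra025431 it was -1.11 to V20 and 1.36 to V40T10 (edgeR adjusted p 0.0183 and 0.00228). The first was lost in 4 of the 12 fits. For Bra028174 it was 1.49 to V40T10 and for Bra013183 2.01 (edgeR adjusted p 0.00161 and 0.00228), and both were called in all 12 fits.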

How the results depend on the processing

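The number of features called without cold, 5121 (1968 higher, 3153 lower), moved by more than 1.5 times under these settings. It was 12932 (5968 and 6964) with the spread of all 30 libraries and 2690 (952 and 1738) with at least 10 counts in every library. It was 8497 (3709 and 4788) without Chiifu NV replicates 2 and 3, an alternative chosen after seeing the data. Without 1 library at a time it ran from 2755 to 8463, with 1070 to 3668 higher and 1636 to 4795 lower. RLE, upper-quartile scaling, no filter, DESeq2 and voom gave 5087, 5098, 5452, 6731 and 4813, and the share lower stayed between 53.9 and 64.6% in all settings. For the change of the cultivar difference to V1, V20, V40 and V40T10, the numbers without 1 library ran from 185 to 1698, 286 to 2761, 481 to 2565 and 2496 to 6674. With the spread of all 30 libraries they were 2646, 2963, 3522 and 7819, with DESeq2 1709, 2298 and 2428 at the first 3, and with voom 343, 436 and 723.

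Replicate numbers did not pair the libraries, as same-numbered NV libraries correlated at 0.079, 0.117 and -0.064 in their deviations. With the replicate block, 3800 features were called without cold and 451 for the change to V20. Calls lost under it were Bra028174 and Bra025431 without cold, Bra020445 at V20 and the change of Bra022976 to V20 (edgeR adjusted p 0.0578, 0.106, 0.0694 and 0.0503).

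Features near 0 in LP08 numbered 234, or 635 and 131 with a level of 1 or 10 CPM required in Chiifu. Those near 0 in Chiifu numbered 147, or 368 and 71 with these levels in LP08, and 91 at 0 counts. Recurrence at all 4 later treatments was also counted in alternatives chosen after seeing the data. With all 30 libraries setting the spread it held for 1725 higher and 2680 lower features (32.6 and 45.7%), without Chiifu NV replicate 3 for 1485 and 2435 (45.7 and 56.1%), and without replicates 2 and 3 for 1535 and 2439 (47.7 and 56.2%). No named feature changed direction in a comparison where it was called, nor Bra024536 without cold, under any setting run. The causes of these shifts were not tested, and depth limits what can be said of features near 0.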
